A study of Mus musculus with 18 samples.

Results

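The Ikaros family of zinc finger transcription factors has 5 genes in the mouse, Ikzf1 (Ikaros), Ikzf2 (Helios), Ikzf3 (Aiolos), Ikzf4 (Eos) and Ikzf5 (Pegasus). They were taken by symbol, as 5 of 35734 genes in the authors' deposited RNA-seq table. They were also taken as 5 loci in the ATAC-seq peak lists of fibroblasts, and as 5 gene windows (the gene and 2 kb on either side) among 19104 protein-coding windows with at least 100 control fragments in the retinal multiome. The fibroblasts were mouse embryonic fibroblasts (MEFs) of the R26-M2rtTA line on C57BL/6, which carry a doxycycline-responsive activator. Every library came from cells with doxycycline-inducible lentiviruses that carry Brn2, whose gene symbol is Pou3f2, and Myt1l, collected after 48 h of doxycycline. The BM group had no other factor, and the other group had vectors for Ikzf1 and Ikzf4 as well (BM + Ikzf1/4), with 3 RNA-seq and 3 ATAC-seq libraries each. The retinal part held 1 multiome ATAC library from a control labelled Muller glia, mCherry and GLAST-CRE ERT2 ; RosaYFP on C57BL/6, and 1 library labelled Ikzf1/4, whose labels give no tissue, line or strain. The labels name tamoxifen and 14 days for both, whereas per the file headers their run names carry 48 h. Nothing in the labels ties the MEF libraries to separate cultures or embryos, so p-values measure the spread between libraries, which may be technical.

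Ikaros proteins bind DNA containing a GGGAA core through a group of zinc fingers near the amino end, and pair with each other through a further group at the carboxyl end. They are best known from lymphocytes, where they work with the NuRD chromatin remodelling complex to repress and activate genes. Ikaros and Aiolos are also substrates of the cereblon ubiquitin ligase when thalidomide-like drugs are present. In the retina, Ikaros is known from progenitors that make early-born cell types, and the pairing of Ikzf1 with Ikzf4 here forced both into cells that are not lymphocytes.

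The upstream sequences of the family were looked up first, because they are the stretch where a start-site ATAC peak would lie and where the family's own motif could occur. RefSeq promoters on GRCm38.p6 were matched for 2 members, Ikzf1 (with 2 start sites on the plus strand) and Ikzf5 (minus strand). The 250 bases before each start follow, 5′ to 3′, with GGGAA or its reverse complement TTCCC in capitals and the rest in lower case.
Ikzf1 upstream start, chr11:11685675-11685924, plus strand: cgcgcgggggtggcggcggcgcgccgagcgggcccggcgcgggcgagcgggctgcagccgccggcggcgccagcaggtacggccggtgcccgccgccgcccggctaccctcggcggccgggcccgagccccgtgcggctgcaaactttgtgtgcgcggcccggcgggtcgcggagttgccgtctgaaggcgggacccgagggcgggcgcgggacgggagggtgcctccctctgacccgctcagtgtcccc
Ikzf1 downstream start, chr11:11689927-11690176, plus strand: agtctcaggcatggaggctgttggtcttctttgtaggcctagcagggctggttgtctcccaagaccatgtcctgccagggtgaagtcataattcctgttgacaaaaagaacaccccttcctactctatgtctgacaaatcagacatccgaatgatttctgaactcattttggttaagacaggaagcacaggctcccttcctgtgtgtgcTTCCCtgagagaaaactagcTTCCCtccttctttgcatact
Ikzf5, chr7:131410479-131410728, minus strand: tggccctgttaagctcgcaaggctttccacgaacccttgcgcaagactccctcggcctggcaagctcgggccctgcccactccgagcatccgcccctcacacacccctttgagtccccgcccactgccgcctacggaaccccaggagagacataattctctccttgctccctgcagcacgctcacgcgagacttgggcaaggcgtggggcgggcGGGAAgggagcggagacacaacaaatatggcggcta
No GGGAA or TTCCC occurred before the upstream Ikzf1 start. The downstream Ikzf1 start had 2 copies of TTCCC, and Ikzf5 had 1 copy of GGGAA. Either form was present in 56.3% of 32536 distinct upstream stretches of the same length, so these matches describe the letters only. The upstream Ikzf1 stretch was 82% G or C with 44 CpG dinucleotides, an observed over expected CpG ratio of 1.05. The downstream one was 47.6% G or C with 1 CpG, a ratio of 0.071, and Ikzf5 lay between them at 64% with 18 CpGs and 0.719. The median ratio of all upstream stretches was 0.378. In the retina these stretches were open to very different degrees. The Ikzf5 stretch held 449 control fragments, or 8.62 CPM (counts scaled by the library's total fragments), and 299 or 10.2 CPM in the Ikzf1/4 library. The Ikzf5 window also overlaps the genes Pstk and Acadsb, whose share in these fragments was not tested. The upstream Ikzf1 stretch held 40 and 16 fragments (0.767 and 0.545 CPM), and the downstream one held 8 and 7.

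In fibroblast RNA, the 2 members carried by the added vectors were raised and the other 3 were not called as changed. Per-library gene values were not used here, so the gene values below are those of the authors' deposited table, where a log2 fold change compares BM + Ikzf1/4 with BM and called means an adjusted p (DESeq2) below 0.05. Ikzf1 (ENSMUSG00000018654) had a log2 fold change of 7.76 with an SE of 0.174 in the authors' deposited table, 216-fold with a 95% interval from the SE of 171 to 274. Ikzf4 (ENSMUSG00000002578) had 8.54 with an SE of 0.147 there, 373-fold with an interval of 305 to 455. Both adjusted p-values are listed as 0 in the authors' deposited table. These rises check the labels and are not a finding, because both genes were added. The next largest log2 fold change among genes with an adjusted p was 3.26, for Vwc2l. Called genes made up 30.6% of those with an adjusted p in the authors' deposited table (5133 of 16757), against 2 of the 4 members that had an adjusted p.

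Of the members that were not added, Ikzf5 was the best expressed and Ikzf3 was close to absent. Ikzf5, a divergent member with a different preferred DNA site, had a mean normalised count of 2107 in the authors' deposited table. Its log2 fold change was -0.0009 with an SE of 0.0915 (adjusted p = 0.995), and the interval ran from -0.18 to 0.18. Ikzf2, a factor of regulatory T cells and progenitors, had a mean of 281.7 in the authors' deposited table and a log2 fold change of -0.19 with an SE of 0.147 (adjusted p = 0.349). Its interval ran from -0.48 to 0.09. Ikzf3, the B cell member, had a mean normalised count of 1.37 over all 6 libraries in the authors' deposited table. It had no adjusted p there, and its log2 fold change was 0.09 with an SE of 0.0785. That small SE is no sign of precision, since the median SE in the authors' deposited table was 0.0494 for genes with means of at most 2 and 0.172 for means between 100 and 200, and whether the values were shrunk is not stated. By mean count, Ikzf1 and Ikzf4 stood above 99.7% and 99.1% of the genes with an adjusted p, Ikzf5 above 72.9% and Ikzf2 above 37.1%. Less RNA per cell and fewer cells with the RNA cannot be told apart in these bulk libraries.

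The factors shared by both groups were the base on which the family members were added. Pou3f2 had a mean normalised count of 151148 in the authors' deposited table and a log2 fold change of -0.05 with an SE of 0.0836 (adjusted p = 0.689). Myt1l, a zinc finger repressor of non-neuronal genes, was called higher in the authors' deposited table, with a log2 fold change of 0.50 and an SE of 0.172 (adjusted p = 0.0157). The level of Myt1l moved with the addition of Ikzf1 and Ikzf4, and its part in other results was not tested.

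**Figure D1:**
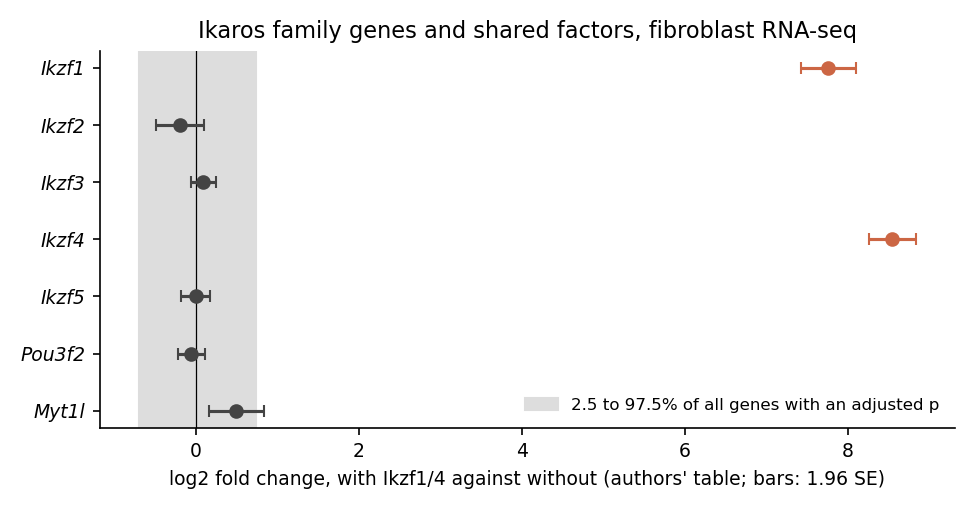
Log2 fold changes of the 5 Ikaros family genes and the 2 shared factors (x axis, log2 scale) from the authors' deposited table, with bars for the 95% interval from the SE and a grey band for the central 95% of all genes with an adjusted p. Ikzf1 at 7.76 and Ikzf4 at 8.54 stand far to the right of the band, while Ikzf2, Ikzf3 and Ikzf5 lie inside it. The narrow bar of Ikzf3 belongs to a mean count of 1.37.

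Transcript counts gave the per-library view that the gene table lacks, although no source used here pairs the transcripts with genes. Of 117135 transcripts, 4 were above 50 CPM on average in BM + Ikzf1/4 with an edgeR log2 fold change above 4, a choice made after the values were seen. Together they held 48, 160 and 144 estimated reads in the BM libraries. In the BM + Ikzf1/4 libraries they held 129622, 107797 and 116102 reads, or 3096, 2770 and 2775 CPM. Since the choice used these values, the gap between the groups is a description and supports nothing. ENSMUST00000076700.10 had 41, 154 and 144 reads in BM and 51444, 36418 and 37955 in BM + Ikzf1/4. ENSMUST00000018798.6 had 5, 6 and 0 reads in BM and 43459, 30044 and 32143 in BM + Ikzf1/4. Across all 43526 transcripts tested with edgeR, 3095 were called, 7.11%. Which genes these 4 transcripts belong to was not assigned.

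Partners of the family were measured next, from lists of known partners and targets. Among 17 genes of NuRD and other co-repressors, 6 were higher, none was lower and 11 were not called, where 15.3% of genes with an adjusted p were higher and 15.4% lower in the authors' deposited table. The median log2 fold change of the list was 0.04, against -0.0004 over all genes with an adjusted p. Gatad2b, a scaffold subunit of NuRD, had the smallest adjusted p, with a log2 fold change of 0.39 and an SE of 0.0509 in the authors' deposited table. Chd3 and Chd4, the remodelling motors to which Ikaros binds, rose by 0.29 and 0.27 there. Mta3 rose by 0.37, Sin3a by 0.28 and Gatad2a by 0.15 on the same log2 scale of the authors' deposited table. With Benjamini-Hochberg adjustment over all of its raw p-values, 5 genes of the list were higher in place of 6. The deacetylases Hdac1 and Hdac2 were not called in the authors' deposited table, at 0.10 (adjusted p = 0.233) and -0.02 (adjusted p = 0.756). All 6 changes were small, below 0.4 on the log2 scale.

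For the cereblon ligase, 1 of 5 genes was higher in the authors' deposited table and none was lower, a share close to the 15.3% of genes with an adjusted p that were higher. That gene was Crbn, the subunit that holds the substrate, with a log2 fold change of 0.18 and an SE of 0.059 (adjusted p = 0.00991). Ddb1, Cul4a, Cul4b and Rbx1 lay between -0.10 and 0.10 in the authors' deposited table. The median of the list was -0.08.

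Lymphoid genes known to be bound or regulated by Ikaros proteins divided into those a fibroblast expresses and those it does not. Of 24 genes, 17 had an adjusted p in the authors' deposited table, of which 5 were higher, 4 lower and 8 not called. Of all genes with an adjusted p there, 30.6% were called, 15.3% higher and 15.4% lower. Among the genes without an adjusted p in the authors' deposited table, Dntt, Igll1, Cd79b, Rag1, Rag2 and Irf4 had mean normalised counts of at most 2.91, with Dntt at 0. Myc, the growth regulator that Ikaros represses in B cell precursors, fell by 1.04 on the log2 scale (SE 0.0789) in the authors' deposited table. Ebf1, a B lineage factor that fibroblasts also express, fell by 0.95 (SE 0.1), and Cdk6 by 0.26 and Cdkn1a by 0.12 in the authors' deposited table. Bcl6, a transcriptional repressor, rose by 0.78 (SE 0.0983), and Notch1, a receptor, by 0.46 (SE 0.0949) in the authors' deposited table. Foxp1 rose by 0.35 and Ccnd2 by 0.14 in the authors' deposited table. The median over the 17 genes was 0.10.

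Markers of blood cells were checked because Ikzf1 is expressed in macrophages and lymphocytes, which could be present in embryonic cultures. Of 12 markers, 10 had an adjusted p in the authors' deposited table, and 0 of them were called in either direction, where 30.6% of all genes with an adjusted p were called. Their log2 fold changes ran from -0.20 to 0.08. The macrophage genes Lyz2 and Csf1r had mean normalised counts of 13089 and 2580 there, whereas the T cell gene Cd3e was at 0 in the authors' deposited table. The labelled cell type was checked with 10 fibroblast markers, of which Col1a1 and Col1a2 had means of 120151 and 120590. Of those 10, 8 were lower with Ikzf1/4, where 15.4% of genes with an adjusted p were lower, Dcn by a log2 fold change of -1.77 and Col3a1 by -1.29 in the authors' deposited table, while Lum and Pdgfra were not called. The other lower markers in the authors' deposited table were Vim (-0.59), Thy1 (-0.53), S100a4 (-0.40), Col1a2 and Col1a1 (both -0.38) and Pdgfrb (-0.32).

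The fibroblast peak lists are not in mm10 coordinates, since their peaks on chromosome 1 reach 197160924, past that assembly's last gene end at 195291439. The submitters' processing notes name mm9 and mm10, so the coordinates below are given as mm9. Each locus was placed by sliding 300 retinal open sites from around the gene along the peaks of its chromosome until most sites fell on peaks. The best placement held 194 of 300 sites for Ikzf3 against 30 at the next best place elsewhere, and 137 against 29 for Ikzf4. It was less sharp for Ikzf5 (63 against 45), Ikzf1 (40 against 22) and Ikzf2 (32 against 22). At Ikzf2 only 1 of the 32 sites nearest the gene fell on a peak, while the sites left and right of it, placed separately, gave positions 180 bp apart. Positions and counts at these 3 loci are the less certain ones. Peaks were read within 2 kb of each placed gene, and distances below count from the gene's start edge.

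At 4 of the 5 loci every BM + Ikzf1/4 library had more ATAC peaks than any BM library. Ikzf1 had 3, 3 and 2 peaks in BM and 8, 9 and 7 in BM + Ikzf1/4. Ikzf4 had 2 in each BM library and 4, 4 and 5 with the added factors. At Ikzf2, a member that was not added, the counts were 10, 9 and 4 against 13, 12 and 11. At Ikzf3 they were 2, 3 and 1 against 4, 5 and 5. Windows of the same lengths, laid end to end over all chromosomes of the peak lists and holding a peak, give the background, genes or not. Each BM + Ikzf1/4 library had more peaks than any BM library in 22.8% of windows of the Ikzf1 length, 27.0% for Ikzf2, 22.4% for Ikzf3, 18.0% for Ikzf4 and 15.4% for Ikzf5. At each of these 4 loci the exact two-sided permutation test gave p = 0.1, the smallest value that 3 against 3 libraries allow. At Ikzf5 the groups overlapped, with 6, 5 and 4 peaks against 4, 5 and 5 (exact permutation p = 1). The third BM list was the shortest, with 131297 peaks against 169646 to 207243 in the others. With the 131297 highest peaks of every library, the difference at Ikzf2 was 2 peaks (exact permutation p = 0.3) in place of 4.33, and at Ikzf3 1.33 (exact permutation p = 0.2) in place of 2.67. At Ikzf1 the difference remained 5.33 and at Ikzf4 it was 2.67, each with p = 0.1 in the exact permutation test. The BM + Ikzf1/4 counts at Ikzf1 and Ikzf4 include 3 very high peaks each, described below, where vector DNA cannot be told apart from the gene. Without those peaks Ikzf4 had 1, 1 and 2 peaks against 2 in each BM library (exact permutation p = 0.4), so its direction turned and only 3 loci kept groups that did not overlap. Ikzf1 then had 5, 6 and 4 against 3, 3 and 2 (exact permutation p = 0.1). Whether vector DNA also adds to these remaining, lower peaks was not tested. At equal list lengths the groups also met at Ikzf2, with 9, 7 and 6 peaks against 6, 6 and 4 in BM. The same held at Ikzf3, with 2, 3 and 3 against 1, 2 and 1 in BM.

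**Figure D2:**
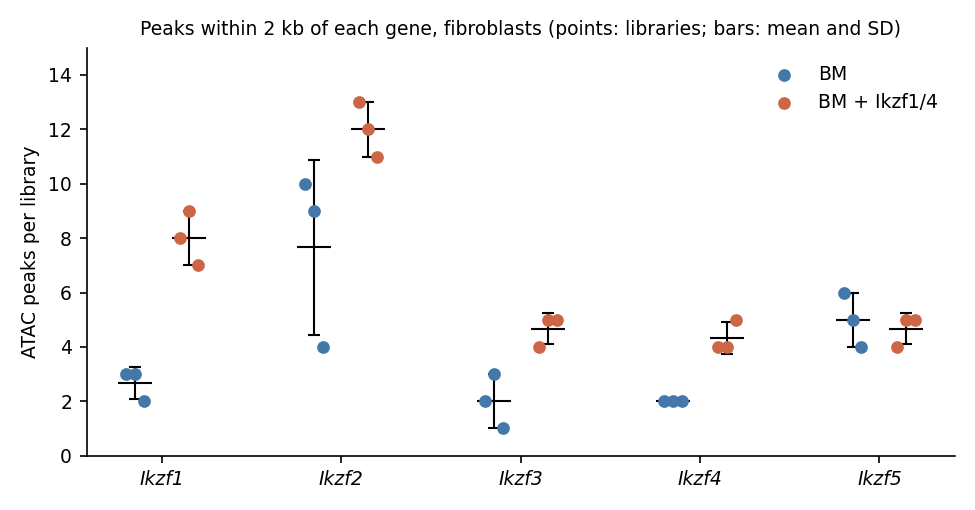
Number of ATAC peaks (y axis) within 2 kb of each of the 5 genes in fibroblasts, with 1 point per library, and the mean with its SD. The BM + Ikzf1/4 points lie above all BM points at Ikzf1, Ikzf2, Ikzf3 and Ikzf4, and among them at Ikzf5.

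Merging the 6 lists gave 46 regions at the 5 loci. A region was counted as gained when all 3 BM + Ikzf1/4 lists and no BM list had a peak there, and as lost in the reverse case. Of the 46, 12 were gained and 1 was lost, where 9.43% of all 321676 regions were gained and 3.67% lost. The authors' score (10 times -log10 q) was higher in each BM + Ikzf1/4 library than in any BM library at 20 of the 46, gained ones included, and lower at 2, where the shares of all regions were 21.7% and 8.67%. By locus, 4 of 10 regions at Ikzf1, 4 of 17 at Ikzf2, 1 of 8 at Ikzf3, 3 of 5 at Ikzf4 and 0 of 6 at Ikzf5 were gained. Without the 6 very high regions 6 of 40 were gained, 15%, none of them at Ikzf4, and 14 of 40 were higher, 35%. A share of vector DNA in the remaining Ikzf1 and Ikzf4 regions was not tested.

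Of the 12 gained regions, 6 were unlike the rest, 3 at Ikzf1 and 3 at Ikzf4. They were the 3 highest at each of these loci, and none had a peak in any BM library. At Ikzf1 (chromosome 11), a peak of 269 bp at chr11:11648312-11648580, 63.3 kb into the gene, had scores of 1770, 1682 and 1359. The next, 180 bp wide at chr11:11654004-11654183, had 1573, 1298 and 1278. The last, 895 bp wide at chr11:11668907-11669801, had 3533, 3573 and 2826, and began 83.9 kb into the gene, 3.14 kb before its far edge. At Ikzf4 (chromosome 10), the peak nearest the start edge was 269 bp wide at chr10:128078104-128078372, with scores of 1664, 1369 and 2154. The following one was 176 bp wide at chr10:128077195-128077370, with 850, 771 and 1247. The farthest was 727 bp wide at chr10:128071127-128071853, with 2451, 2364 and 2729, and ended 3.25 kb before the gene's far edge. All 6 ranked between 34 and 94 among the 197858 to 207243 peaks of their lists.

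The 6 peaks had nearly the same ends in each library. Their starts differed by 0 to 16 bp between the 3 libraries and their ends by 0 to 7 bp. The remaining gained region at Ikzf1, 14.6 kb into the gene, had starts and ends that differed by 61 and 22 bp. A region at Ikzf2 with peaks in 4 libraries had starts within 14 bp, but ends that differed by 109 bp. A region at Ikzf3 with peaks in 2 BM libraries was as even, with starts that differed by 10 bp and ends by 0. Read from each gene's start, the widths ran 269, 180 and 895 bp at Ikzf1 and 269, 176 and 727 bp at Ikzf4, a short, a shorter and a long peak in both. The gaps between them were 5423 and 14723 bp at Ikzf1 and 733 and 5341 bp at Ikzf4. The added vectors express these 2 genes, so DNA of the vector and chromatin of the gene itself cannot be told apart at these places. Ikzf2, Ikzf3 and Ikzf5, which were not added, had no region with a score above 198 in any library.

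The start-edge regions lay away from those 6 peaks, and whether vector DNA adds to them was not tested. Ikzf1 was open at its start edge in every library, with scores of 57, 27 and 74 in BM and 28, 46 and 70 in BM + Ikzf1/4, and the groups overlapped. Ikzf2 had 89, 116 and 81 against 91, 73 and 60, and Ikzf3 had 23, 31 and 75 against 50, 51 and 30, again overlapping. Ikzf5 had the highest start-edge scores of the family, 145, 125 and 152 in BM and 158, 198 and 150 in BM + Ikzf1/4. The Ikzf5 window also overlaps the genes Pstk and Acadsb, and whether they share in this region was not tested. At Ikzf4 the groups did not overlap, with 18, 29 and 19 in BM and 37, 41 and 65 with the added factors. The Ikzf4 window also overlaps the gene Suox, whose share in this region was not tested. Another Ikzf4 region, 23.2 kb into the gene, went the other way, with 18, 39 and 52 in BM, 15 in 1 BM + Ikzf1/4 library and no peak in the other 2.

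Inside the genes the other regions that differed had scores below those of the 6 very high peaks. Ikzf1 had a gained region 14.6 kb into the gene (scores 41, 24 and 85). Its region at 27.4 kb had 16, 21 and 27 in BM and 78, 100 and 78 in BM + Ikzf1/4. The region at 72.6 kb had 12 in 1 BM library, no peak in the other 2, and 134, 185 and 139 with the added factors. It lay between very high peaks, with starts that differed by 377 bp and ends by 18 bp. Whether vector DNA adds to it was not tested. Ikzf2, which was not called in RNA, gained a region 152 kb into the gene, close to its far edge (102, 45 and 71), and lost one at 103 kb that had 15, 15 and 17 in BM. Ikzf3 had a region 2.07 kb into the gene with 16 in 1 BM library and 67, 60 and 83 in BM + Ikzf1/4. At Ikzf5 the only region that did not overlap between groups lay 11.9 kb into the gene, with 94, 54 and 62 against 179, 186 and 190. Peak scores depend on the depth of each library, which the lists do not give.

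**Figure D3:**
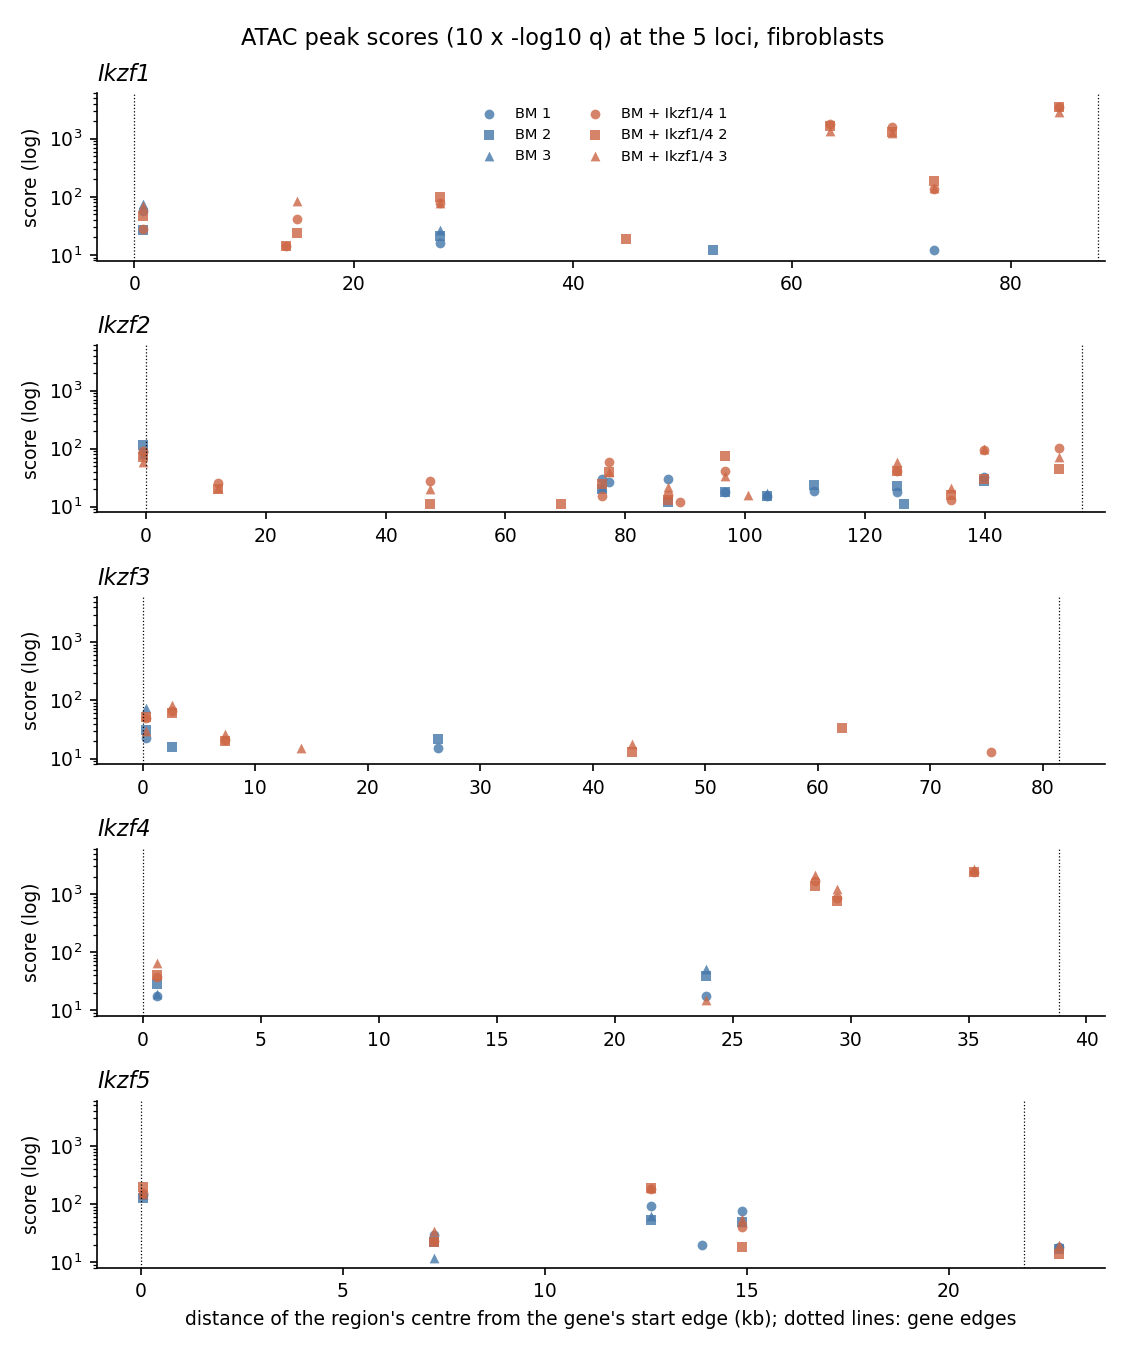
Authors' peak scores (y axis, log scale, 10 times -log10 q) of each region at the 5 loci against the distance of its centre from the gene's start edge (x axis, kb), in blue for BM and orange for BM + Ikzf1/4 libraries. The 3 groups of orange points above 1000 at Ikzf1, and the 3 at Ikzf4 with scores of 771 to 2729, have no blue counterpart. At Ikzf2, Ikzf3 and Ikzf5 both colours stay below 200.

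In the retinal multiome, Ikzf1 and Ikzf4 differed between the libraries in opposite directions. These libraries held 52119123 control and 29358834 Ikzf1/4 fragments, of which 13326555 and 8786267 came from cells. With 1 library per condition there is no test, and the 95% intervals below cover counting error only. The Ikzf1 window (chr11:11684962-11772930 on mm10, plus 2 kb) held 2142 control and 813 Ikzf1/4 fragments, 41.1 and 27.7 CPM. Its ratio of Ikzf1/4 to control was 0.674 (0.621 to 0.731). The Ikzf4 window held 1213 and 992 fragments, 23.3 and 33.8 CPM, a ratio of 1.45 (1.33 to 1.58). Ikzf2 had 61.2 and 60.3 CPM with a ratio of 0.985 (0.929 to 1.04). Ikzf3 had 33.4 and 34 CPM with 1.02 (0.94 to 1.1), and Ikzf5 had 18.1 and 18.4 CPM with 1.02 (0.912 to 1.13). Intervals above 1 were found for 41.0% of all windows and intervals below 1 for 14.0%, with a median ratio of 1.07. Ikzf1 lay above 2.03% of the windows' ratios and Ikzf4 above 98.9%. The Ikzf4 window also overlaps the protein-coding gene Suox and the Ikzf5 window overlaps Pstk and Acadsb, so fragments of those genes cannot be told apart from the members' own. The windows of Ikzf1, Ikzf2 and Ikzf3 overlap no other protein-coding gene. Any DNA of added Ikzf1 or Ikzf4 cannot be told apart from the genes themselves, here or in the cell classes below. Per kb of window, the control levels were 0.447 CPM for Ikzf1, 0.382 for Ikzf2, 0.392 for Ikzf3, 0.543 for Ikzf4 and 0.699 for Ikzf5.

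The Ikzf4 difference was present over the start-edge region and elsewhere in its window, where a share of Suox was not tested. At the places of the fibroblast regions, carried over by the same spacing, the Ikzf4 start-edge region held 175 control and 191 Ikzf1/4 fragments, a ratio of 1.94 (1.57 to 2.39). The region 23.2 kb into the gene held 99 and 91, a ratio of 1.63 (1.21 to 2.19). The start-edge region of Ikzf2 had 624 and 473 fragments with a ratio of 1.35 (1.19 to 1.52), while its whole window had 0.985. For Ikzf5 it was 1.14 (1 to 1.3), for Ikzf3 0.865 (0.571 to 1.29) and for Ikzf1 0.71 (0.508 to 0.98). A ratio over the start regions of all genes was not computed, so these values have no background. A difference between the libraries at gene starts in general cannot be told apart from one at these loci. The places of the 3 very high fibroblast peaks held few retinal fragments, 38 control and 25 Ikzf1/4 in all at Ikzf1, a ratio of 1.17 (0.676 to 1.99). At Ikzf4 they held 40 and 49, a ratio of 2.17 (1.4 to 3.39). Both ratios were above those of the whole windows, 0.674 at Ikzf1 and 1.45 at Ikzf4. Whether DNA of added constructs enters these counts was not tested.

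**Figure D4:**
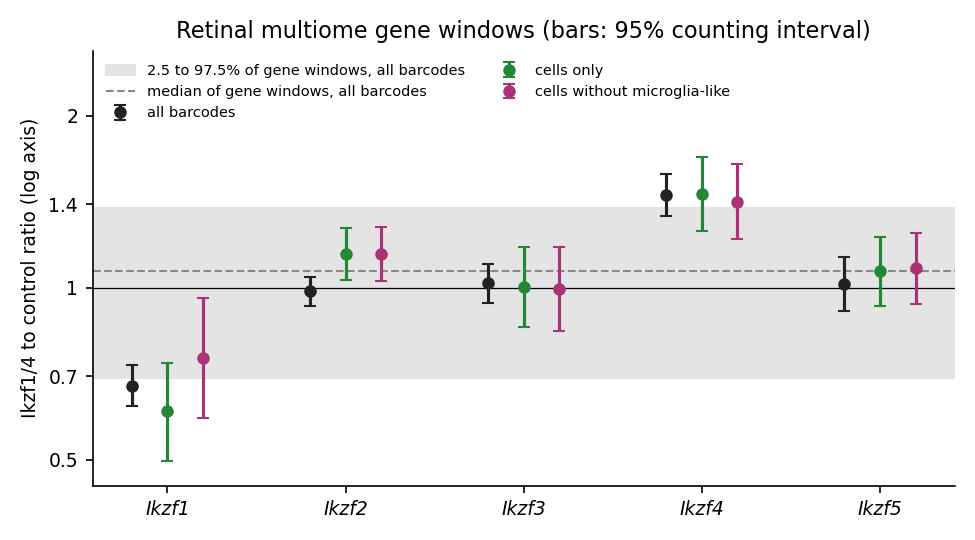
Ratio of the Ikzf1/4 to the control library in the 5 gene windows (y axis, log scale), over all barcodes, over cells and over cells outside the microglia-like cluster, with 95% counting intervals, beside the central 95% of all gene windows (grey) and their median. Ikzf1 lies below 1 and Ikzf4 above 1 in all 3 settings.

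Cells were clustered on the rest of the genome to see where each member was open, with the bins over the members left out. A cell was a barcode with at least 3000 fragments and enrichment at gene ends, which left 1872 control and 691 Ikzf1/4 cells, and 3 of these barcodes occurred in both libraries. No doublet caller was run. From marker windows, 9 of the 10 clusters were named Muller glia-like (2 clusters), bipolar-like (2), cone-like, rod-like, microglia-like, horizontal-like and amacrine-like, and 1 stayed unnamed. The horizontal-like and amacrine-like clusters had 46 and 22 control cells but 1 and 2 Ikzf1/4 cells. In the horizontal-like cluster the horizontal markers were 2.11 to 3.81 times their level in other cells. The amacrine markers Slc6a9 (3.39 times) and Gad2 (2.34 times) were raised there too, so this name is less certain. The control label names Muller glia, and 680 of 1872 control cells and 133 of 691 Ikzf1/4 cells were in the Muller glia-like clusters.

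Ikzf1 was the member with the strongest difference between cell classes. Its window stood at 140 CPM (161 fragments in 110 cells) in control microglia-like cells and at 144 CPM (39 fragments in 19 cells) in Ikzf1/4 microglia-like cells. All other control cells were at 16.5 CPM, so the microglia-like level was 8.5 times higher (6.87 to 10.5), and in the Ikzf1/4 library it was 11.5 times higher (7.79 to 16.8). At least 1 Ikzf1 fragment was seen in 58.2% of control microglia-like cells (exact binomial interval 48.4 to 67.5) and 11.8% of control Muller glia-like cells (9.44 to 14.4). Median fragments per cell were 9945 in the former and 4514 and 6600 in the 2 clusters of the latter, so depth differed too. Outside the microglia-like class, control levels by class lay between 9.21 CPM in amacrine-like cells (2 fragments in 22 cells), 9.89 in cone-like cells and 21.8 in Muller glia-like cells. The 2 Muller glia-like clusters differed, at 15.9 CPM (11.5 to 21.3) and 32 CPM (23.8 to 42.1) in control. In rod-like cells of the Ikzf1/4 library Ikzf1 was at 21.2 CPM, but 36 of its 52 fragments came from 3 of 156 cells, and without those cells it was at 7.08.

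The share of microglia-like cells moved with the Ikzf1 result. They were 5.88% of control cells and 2.75% of Ikzf1/4 cells. The Ikzf1 ratio was 0.607 (0.498 to 0.739) over all cells and 0.754 (0.59 to 0.959) over cells outside the microglia-like cluster. The latter rests on the same 3 rod-like cells, which hold 36 of the 106 Ikzf1/4 fragments. Without the 3 cells with most Ikzf1 fragments in each library it was 0.539 (0.403 to 0.712). Those cells were picked by the count itself. They held 36 of 106 Ikzf1/4 but 11 of 201 control fragments, so the choice by itself lowers the ratio. Within microglia-like cells the Ikzf1 ratio was 1.02 (0.703 to 1.46). Of the 8 clusters with at least 19 cells in each library, Ikzf1 was higher in the Ikzf1/4 library in 3. In the rod-like one of these the ratio was 1.35 with, and 0.864 without, the top 3 cells of each library. Counting all cells, 2 clusters had an interval below 1, the cone-like cluster and 1 of the 2 Muller glia-like clusters.

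Ikzf4 showed nearly the reverse distribution, with its lowest level in microglia-like cells. There it stood at 13.9 CPM in control and 22.1 in Ikzf1/4 cells, on 16 and 6 fragments, against 28.8 and 40.8 in all other cells. Its control levels elsewhere were close together, from 26.7 CPM in bipolar-like to 33.7 in cone-like cells. The Ikzf4 window was higher in the Ikzf1/4 library in 8 of 8 clusters, with ratios from 1.02 to 1.83. Intervals lay above 1 in 2 of them, the cone-like cluster and 1 Muller glia-like cluster. These clusters share 1 library per condition, so they are not replicates. The same count was not made for all gene windows. In the microglia-like cluster all 6 Ikzf1/4 fragments came from 3 cells, so the direction there rests on them. Leaving out the top 3 cells of each library therefore had to leave 0 Ikzf1/4 fragments, and 10 control fragments were left. In Muller glia-like cells it stood at 26.8 CPM in control and 43.5 in Ikzf1/4, a ratio of 1.62 (1.17 to 2.23). Of the 61 Ikzf1/4 fragments 19 came from 3 of 133 cells, and without the top 3 cells of each library the ratio was 1.24, with an interval that includes 1 (0.847 to 1.78). The top 3 control cells held 8 of 117 fragments, so the choice by itself lowers the ratio. Without the microglia-like cluster the ratio over cells was 1.41 (1.22 to 1.64), and 1.38 (1.18 to 1.61) when the top 3 cells of each library were left out too.

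Ikzf2 was highest in the photoreceptor-like classes of the main clustering and of a coarser one, an order that a clustering of deeper cells did not keep. In control cells its window held 96.2 CPM (83.8 to 110) in cone-like and 86.4 (65.1 to 112) in rod-like cells, which did not differ beyond their intervals. Amacrine-like cells followed at 69 CPM, with an interval of 38.6 to 114 on 15 fragments. Microglia-like cells were at 58.4 CPM, bipolar-like at 55.5, Muller glia-like at 55 and unnamed cells at 52.8, with overlapping intervals, and horizontal-like cells at 35. The Ikzf1/4 library had the same photoreceptor-like classes at the top, rod-like at 92.3 and cone-like at 87.2 CPM. Of the 227 fragments in those rod-like cells, 58 came from 3 cells, and without them the level was 74.5 CPM. With coarser clusters (Leiden resolution 0.4) control cone-like and rod-like cells stood at 95.4 and 88 CPM, against 55.1 in Muller glia-like and 54.8 in bipolar-like cells. Cells with at least 10000 fragments were also clustered anew, which changed the membership of the classes as well as the depth. The Muller glia-like class of the Ikzf1/4 library then held 136 Ikzf2 fragments in 60 cells, where the main one held 83 in 133 cells, so it took in cells named otherwise before. It stood at 93.8 CPM (78.7 to 111), beside 94.8 in rod-like and 79.7 in cone-like cells. In the control library of that clustering, cone-like cells stood at 99.3 CPM, Muller glia-like cells at 45.8 and rod-like cells at 36, the last on 3 fragments in 7 cells.

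Ikzf3 had the widest range of ratios between libraries by cluster, 0.153 to 1.75, and Ikzf5 the narrowest, 0.786 to 1.16. Control levels of Ikzf3 ran from 17.3 CPM in rod-like to 40.1 in microglia-like cells, where the Ikzf1/4 library had 70 CPM on 19 fragments. Of those 19, 15 came from 3 cells, and without them the level was 19.7 CPM. In Muller glia-like cells Ikzf3 was at 28.4 CPM in control and 12.1 in Ikzf1/4, and in 1 of the 2 clusters of that class the ratio was 0.153 on 3 Ikzf1/4 fragments. The highest Ikzf3 ratio, 1.75 in microglia-like cells, was 0.674 without the top 3 cells of each library. Picking 3 from 19 Ikzf1/4 and 110 control cells by itself lowers the ratio. Control levels of Ikzf5 ran from 30 CPM in horizontal-like to 53.4 in rod-like cells. None of the 8 clusters had an Ikzf5 interval that excluded 1.

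**Figure D5:**
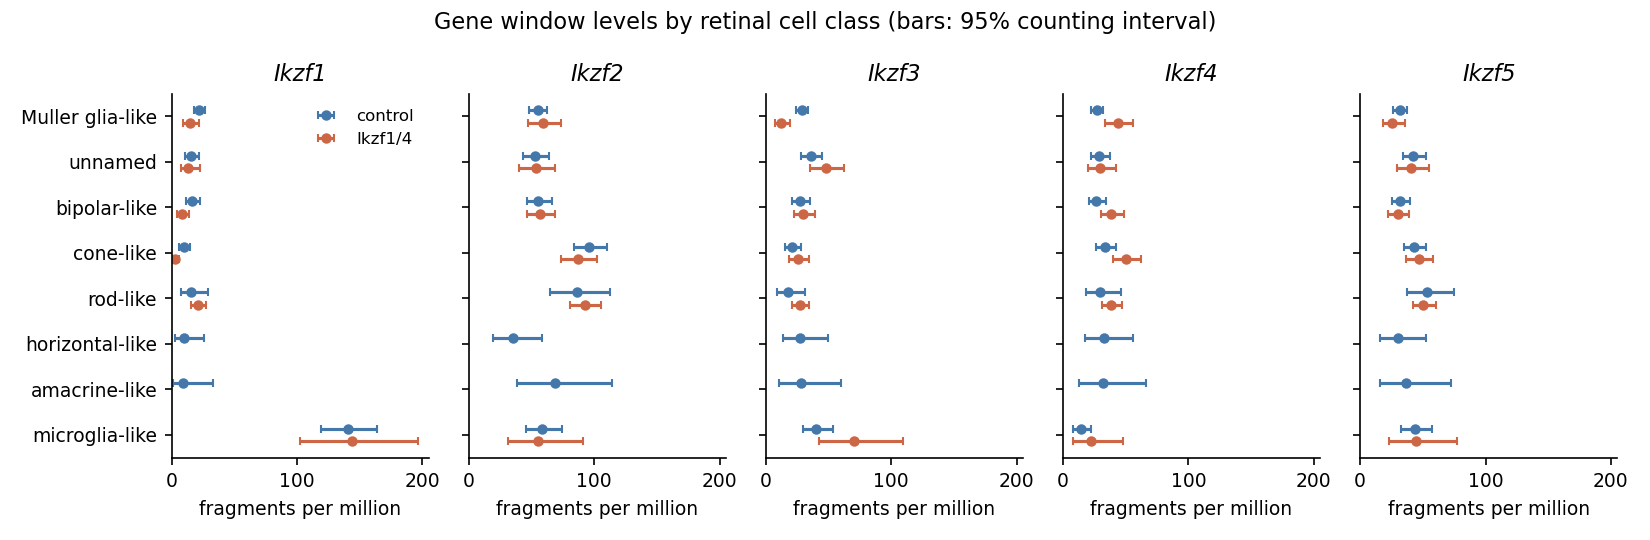
Fragment CPM (x axis) in the 5 gene windows by retinal cell class and library, with exact 95% Poisson intervals, leaving out the horizontal-like and amacrine-like classes of the Ikzf1/4 library with 1 and 2 cells. Ikzf1 stands apart at 140 and 144 in microglia-like cells, Ikzf4 is lowest there among the classes drawn in both libraries, and Ikzf2 is highest in cone-like and rod-like cells of this clustering.

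The genes whose windows varied most like each member were found over 14 cluster profiles, which share libraries and depth. A profile was a cluster within a single library, with at least 50 cells. The r values below are the highest among many gene windows, and no background for such maxima was computed. They are a description only. For Ikzf1 the genes were Rhoh (Pearson r = 0.927), Batf (0.902) and P2ry6 (0.886). Microglia-like cells entered from the control library alone, since the other library had only 19 of them. In that profile Ikzf1 stood at 140 CPM, against 2.36 to 32 in the other profiles. How far its r values rest on that single profile was not tested. For Ikzf2 the genes were Zdhhc2 (0.944), Myh10 (0.939) and Rhobtb1 (0.927). Ikzf3 was nearest to Itgal (0.92), Cfap77 (0.905) and Folr1 (0.904), and Ikzf4 to Nr2f2 (0.907), Skida1 (0.887) and Tmem253 (0.887). Ikzf5 had the closest match, Cfdp1 (0.945), followed by Ybey (0.938) and Commd9 (0.931).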

How the data were processed

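Per the labels, RNA-seq libraries were poly(A)-selected and quantified with salmon. The authors deposited estimated counts and TPM per transcript, and a DESeq2 table per gene with a mean normalised signal, a log2 fold change with its SE, a Wald score, and p-values. The labels do not say if fold changes were shrunk. Per the labels, MACS2 was run on each ATAC-seq library, and the deposited lists give a score, a fold over background (a ratio), and -log10 p and q values. Per the file headers, fragments came from cellranger-arc 2.0.1 on mm10, and the authors deposited each unique fragment with its read pair count. Genome builds were named in the submitters' processing notes without a role.

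All gene values were read from the authors' deposited table. Estimated counts per library (34966344 to 44270426 reads) were rounded and tested per transcript with edgeR 4.0.16 (quasi-likelihood, filterByExpr, TMM, R 4.3.3), calling transcripts at a Benjamini-Hochberg adjusted p under 0.05. As alternatives, limma 3.58.1 and DESeq2 1.42.0 were run. The design foresaw a test per gene, which was not possible because transcripts were not paired with genes. On simulated counts for these 43526 transcripts, edgeR called 35% of transcripts given a log2 change of 1, 66% of those given 2, and 7 unchanged ones.

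Loci were placed in the peak lists by the spacing of open sites, with no coordinates converted. The step recovered 20 of 20 simulated places. All sites of a simulated place had the same shift, so this does not test loci where left and right sites disagree. Sites left and right of the gene, placed separately, gave positions 48240 bp apart at Ikzf5 and 5531420 bp apart at Ikzf1, where the sites nearest the gene decided. At Ikzf1 the left sites had 15 on peaks at their best place and 15 at the next best. Of the 82 sites nearest Ikzf1, 11 fell on peaks. Peaks overlapping by 1 bp were merged, and peak numbers were compared by exact permutation tests. Retinal fragments were divided by the library total (CPM), with exact conditional binomial or Poisson intervals at 95% that cover counting error only. Cells were clustered with scanpy 1.11.5 on 5000 bp bins (TF-IDF, SVD, Leiden resolution 0.8). Region calls and intervals were tested on simulated data.

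The members and lists were chosen with earlier results of these data known. Named were the 5 members, Pou3f2 and Myt1l, all called genes of a list (above 8, the 4 with the smallest adjusted p per direction), Hdac1, Hdac2, Chd4 and Crbn, the 3 highest peaks per group and locus with the start-edge peak, and the 3 genes most like each member. Alternatives covered filters, scaling, windows, cell sets and single libraries left out. Single-cell RNA was not analysed here.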

Additional observations from a re-analysis of the deposited data

How the results depend on the processing

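In the authors' deposited table, 2 of 5 members were called under each alternative tried, the 2 that were added. Requiring an absolute log2 fold change over 1, an alternative chosen after seeing the data for the lists, left 0 NuRD, 0 cereblon and 0 lymphoid genes higher, 1 lymphoid gene lower and 2 fibroblast markers lower. For transcripts, DESeq2 called 7372 and edgeR without the filter 1849, in place of 3095. Leaving out single libraries gave 728 to 1701, all with fewer samples. With the replicate number as a block edgeR called 8. Same-numbered libraries deviated with correlations of -0.0096, 0.003 and 0.0012, which do not settle whether they share a culture or batch. With -log10 q of at least 5, the peak difference was 2.33 at Ikzf2, 1.33 at Ikzf3 and 3 at Ikzf4. At that cut 10 of 23 regions were higher in place of 20 of 46, and those 10 include the 6 very high ones. The share of all regions was not computed at that cut. Without the 6 very high peaks, an alternative chosen after seeing the data, the peak difference was 2.33 at Ikzf1 and -0.667 at Ikzf4, and 6 regions were gained. With equal list lengths the peak difference was 1.33 at Ikzf3. Without the third BM library the difference at Ikzf2 was 2.5 peaks in place of 4.33.

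In the retina, cells only gave ratios of 0.607 for Ikzf1 and 1.145 (1.031 to 1.271) for Ikzf2. Scaled to fragments in gene windows, Ikzf2 was at 0.938 (0.8845 to 0.9943). With read pairs counted it was at 0.95, so the direction for Ikzf2 depended on the setting. Barcodes with at least 10000 fragments gave 0.448 for Ikzf1, 0.877 for Ikzf3 and 1.67 for Ikzf4. Gene start and end regions gave 0.859 for Ikzf1 (0.536 to 1.35), 1.44 for Ikzf2, 0.904 for Ikzf3, 2.1 for Ikzf4 and 1.17 for Ikzf5. No background over all genes was computed for such regions. Cells without the microglia-like cluster, an alternative chosen after seeing the data, gave 0.754 for Ikzf1 and 1.145 for Ikzf2. Leaving out 3 more cells per library, those with most fragments of the member, gave 0.539 for Ikzf1 and 1.07 for Ikzf2. The causes were not tested. Ikzf1 in microglia-like cells stayed within its interval in the alternatives tried, at 147 CPM with at least 10000 fragments per cell. The planned comparison of exons with introns was not run, because no exon coordinates were at hand. With 1 retinal library per condition and peak lists without depth, biological spread cannot be given.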
